A study of Mus musculus with 3 samples.

Results

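The FoxO and oxidative stress genes described here were 10 protein-coding genes of the 21755 annotated on mouse chromosomes 1 to 19 and X. They were the FoxO transcription factors Foxo1, Foxo3 and Foxo4, the sestrins Sesn1, Sesn2 and Sesn3, the antioxidant enzymes Sod2 and Cat, the kinase Atm and the thioredoxin inhibitor Txnip. They were chosen by name, and the body of each gene with 30 kb on either side was read in bins of 500 bp. The cells were long-term hematopoietic stem cells (HSCs) from the bone marrow of 8-week-old female C57BL/6 wild-type mice, of the substrain C57BL/6J by the study's methods. They had been enriched for c-Kit and sorted as LSK CD150+CD48-CD34- cells, where LSK stands for lineage-negative, Sca-1+ and c-Kit+. No treatment, genotype or age was compared, and how many mice were pooled is not stated in the labels or the methods. DOGMA-seq, which reads open chromatin (ATAC), RNA and surface protein tags from the same cells, gave 1 library of each kind. The results rest on the ATAC library alone, so no value has a replicate, no test between groups was possible, and each interval is an exact 95% binomial or Poisson interval that covers counting error only.

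FoxO factors are forkhead proteins that stay in the nucleus and switch on target genes when insulin and growth factor signaling through Akt is low. Their known targets include genes that detoxify reactive oxygen species, that arrest the cell cycle and that slow growth through mTORC1. In mouse HSCs, loss of FoxO factors or of Atm is known to raise reactive oxygen species and to cost the cells their ability to repopulate the marrow. In ATAC-seq the transposase Tn5 cuts DNA that is not wrapped in nucleosomes, so cuts in many cells mark open chromatin, as at promoters and other regulatory elements.

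Of 3757 barcodes called as cells, 3108 (82.7%) had more than 3000 fragments in peaks and were kept. They held between 3977 and 194399 unique fragments each, with a median of 11457, and a median of 70.6% of them lay in peaks. A fragment was counted where either of its ends, the cut sites, fell. At this depth a cell without a cut at a site cannot be read as a cell in which the site is closed. HSC marker genes had cut promoters in 1.35% to 39.99% of cells, led by Hlf (39.99%), Kit (27.1%) and Mecom (22.8%), and only 4 of the 8 lay above the median of all promoters, since Slamf1 (3.31%), Procr (6.02%), Fgd5 (8.11%) and Ly6a (1.35%) did not. B cell markers reached at most 0.997%, T cell markers 0.483%, granulocyte and monocyte markers 1.64% and non-blood markers 2.99%. The 3 megakaryocyte markers lay between 12.6% and 24.8%, and the 4 erythroid markers between 0.611% and 14.2%. Whether cells of these lineages were among those kept, and what part they had in the results below, was not tested.

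All 10 members had a start site that was cut in more cells than the median promoter. The promoter of a gene was taken as 500 bp on either side of its annotated start, and where several starts were annotated the one with the most cuts was used. Atm was open in the largest share of cells, 1953 of 3108 (62.8%, interval 61.1 to 64.5). Txnip followed with 1608 cells (51.7%, 50.0 to 53.5), Sesn3 with 1467 (47.2%, 45.4 to 48.97) and Sesn1 with 1355 (43.6%, 41.8 to 45.4). Foxo3, with 1227 cells (39.5%, 37.8 to 41.2), and Foxo1, with 1213 cells (39.0%, 37.3 to 40.8), could not be told apart in this window. With 1000 bp on either side, which takes in the upstream summit of Foxo3 described below, Foxo3 had 54.8%, above Txnip (53.1%), Sesn3 (50.2%) and Foxo1 (44.5%) and below Atm (64.5%). Sesn2 was cut in 1106 cells (35.6%, 33.9 to 37.3). Sod2, with 780 cells (25.1%, 23.6 to 26.7), and Cat, with 723 cells (23.3%, 21.8 to 24.8), overlapped in their intervals and lay below the rest. Foxo4 came last with 295 cells (9.49%, 8.48 to 10.6).

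**Figure D1:**
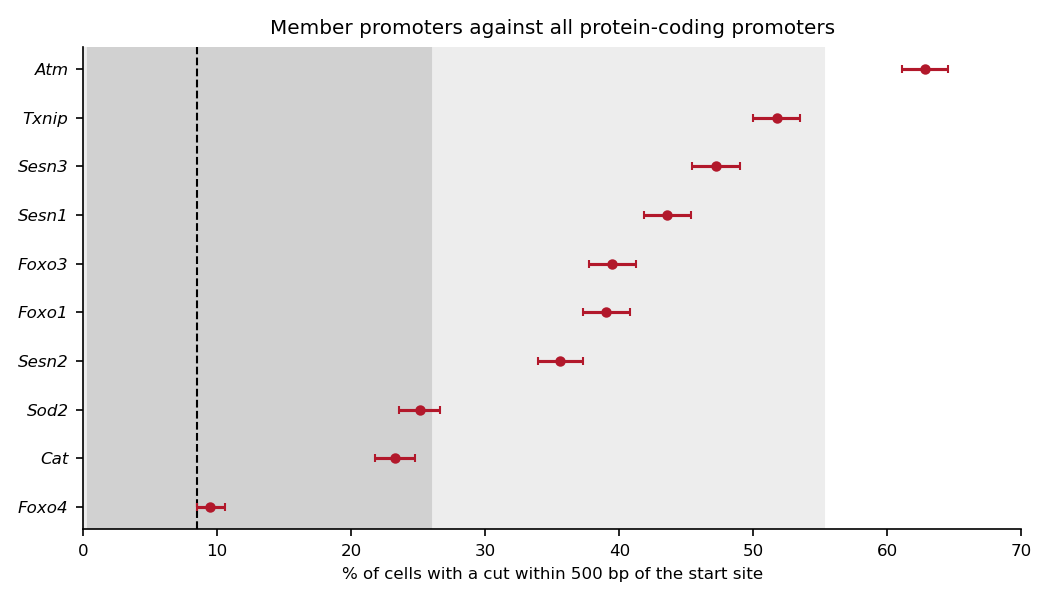
Share of the 3108 cells, in percent on the x axis, with a cut within 500 bp of the start site of each of the 10 members (points, with exact 95% binomial intervals as bars). The dark band spans the 25th to 75th percentiles of all 21670 protein-coding promoters, the light band their 5th to 95th percentiles and the dashed line their median of 8.46%, and Foxo4 at 9.49% sits just right of that line while Atm at 62.8% lies beyond the light band.

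Across 21670 protein-coding genes with a usable start, the median promoter was cut in 8.46% of cells, and 65.3% of promoters were cut in at least 2% of cells, a level that all 10 members passed. Ranked among these genes, Atm stood at percentile 97.3, Txnip at 93.6, Sesn3 at 91.6 and Sesn1 at 89.5. Foxo3 (86.9), Foxo1 (86.5) and Sesn2 (83.9) also lay above percentile 75, whereas Sod2 (74.0), Cat (72.0) and Foxo4 (52.0) did not. Foxo4 is on the X chromosome, whose promoters had a median of 0.997% against 8.98% on the autosomes, and among the 948 genes of its own chromosome it stood at percentile 75.7. Bins of the X chromosome that were not open were cut in 0.0430% of cells on average, against 0.112% on the autosomes. Foxo4 fell below the median, to percentile 49.3, when the window was widened to 1000 bp on either side, and Sod2 to 31.4 when the 5'-most annotated start was used. The members' percentiles are a description, since the genes were listed with earlier results of these data known.

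Over the 10 loci, 141 of 2265 bins (6.23%) were open, meaning cut in at least 2% of cells, or 63 cells. Over chromosomes 1 to 19 and X 1.95% of bins were open, and within 30 kb of any protein-coding gene 3.11% were. Open bins that touched or were separated by a single bin were joined, which gave 55 open sites. Of these, 11 lay at a start of the member itself and 8 at the start of another protein-coding gene. The other 36 belonged to no protein-coding promoter, with 24 distal sites outside the member, 9 in its introns and 3 in its exons. Most of the 36 were weak, with a median of 3.91% of cells at their highest bin. The distal sites spanned 2.06% to 36.7%, the intronic sites 2.22% to 4.79% and the exonic sites 4.28% to 9.43%. Over the genome, 58506 open bins lay away from protein-coding starts, and their median was 3.64%. Only 4 of the 36 sites passed 10% of cells, and they belonged to Sesn2 and Txnip.

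**Figure D2:**
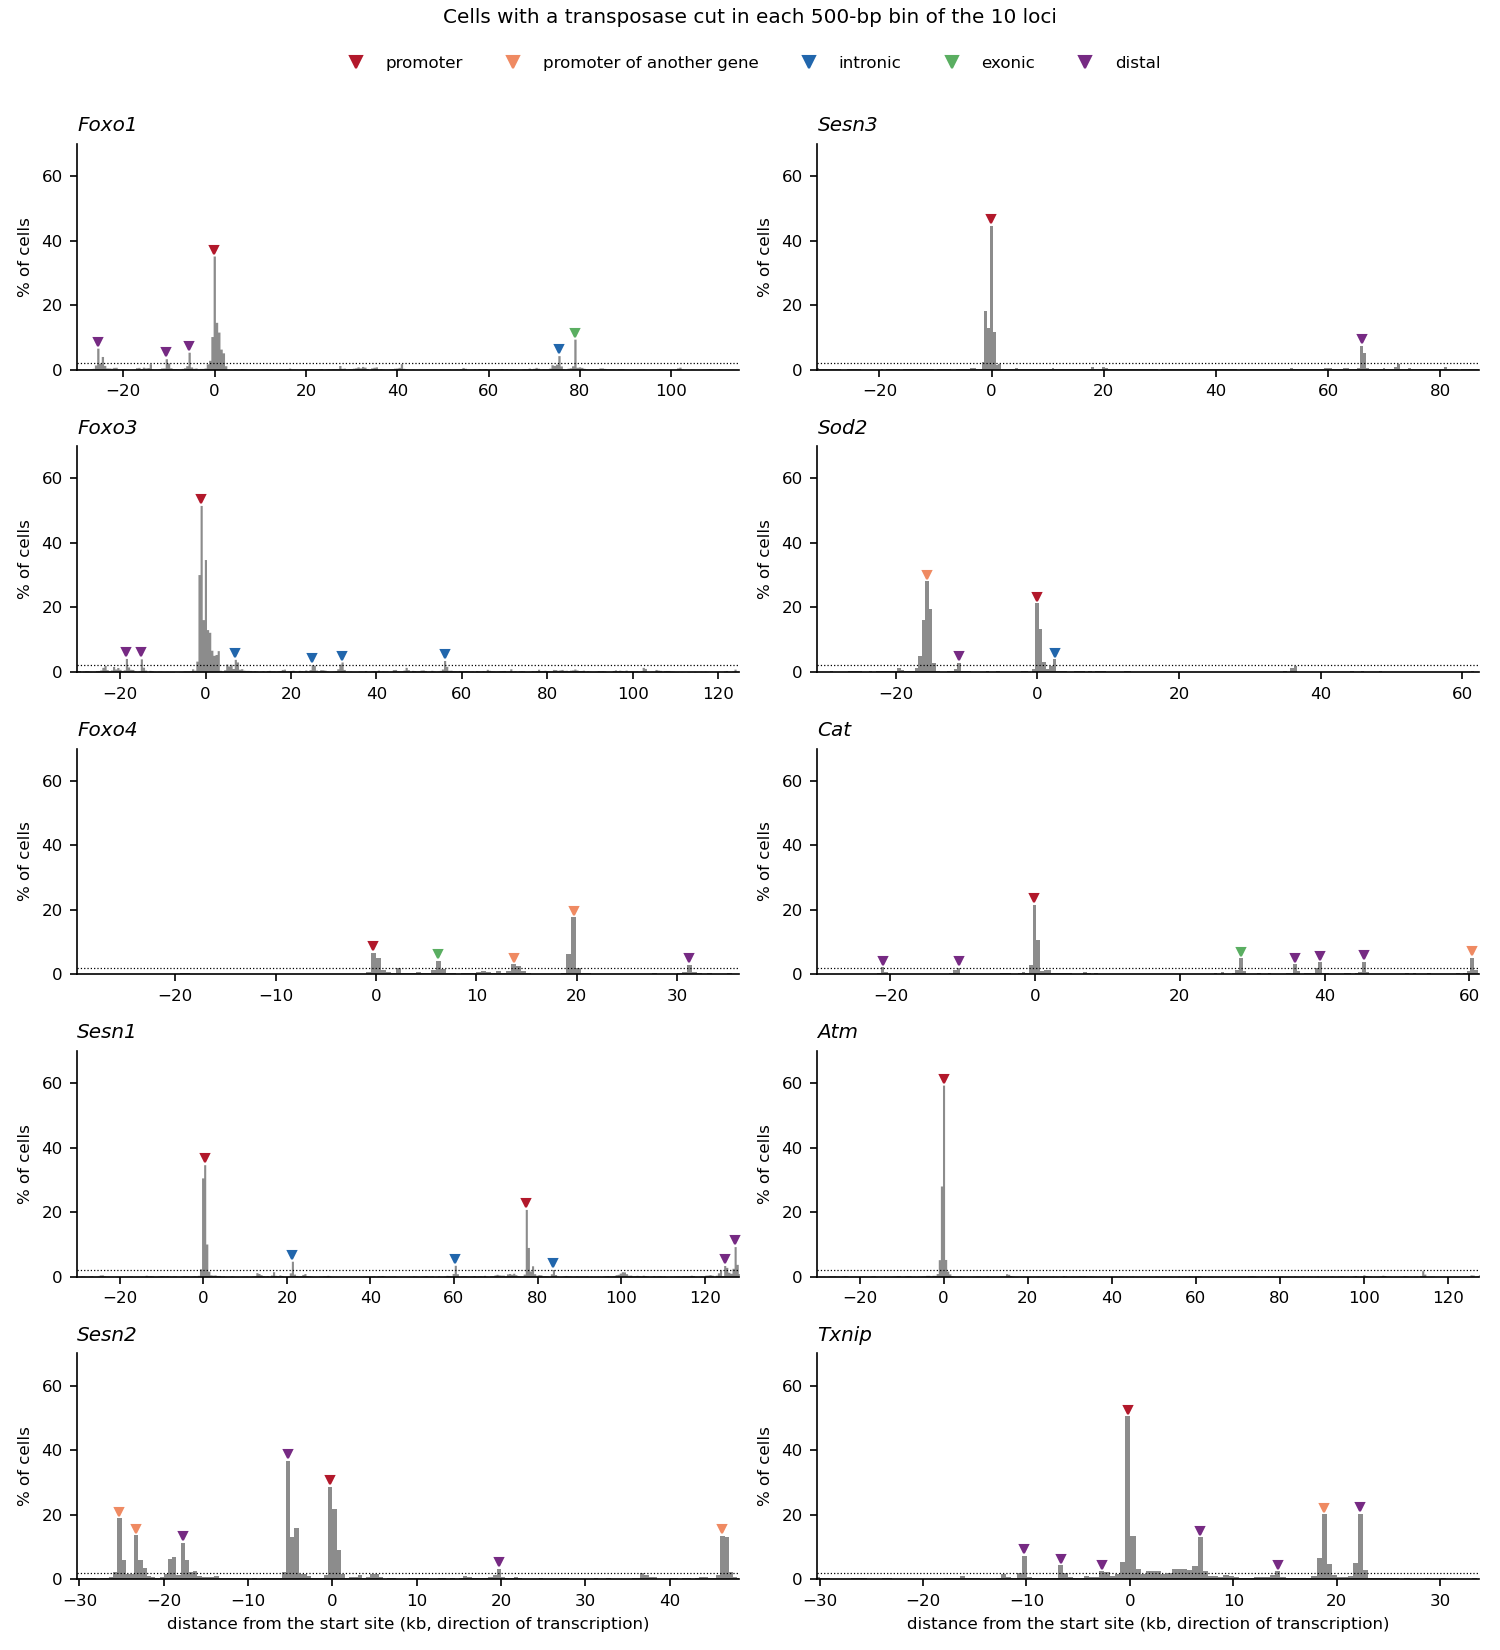
Share of cells with a cut in each 500-bp bin (y axis, percent) along the 10 loci, plotted by distance from the start site in kb in the direction of transcription, with coloured marks at the highest bin of each open site and a dotted line at the 2% threshold. The Atm locus shows 1 site, whereas Sesn2 and Txnip show several, and at Sesn2 the distal site upstream (36.7%) stands above the promoter (28.7%).

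The loci differed in how much of their surroundings was open. At Txnip 20.2% of bins were open, more than at 96.1% of protein-coding genes read in the same way, and at Sesn2 14.6%, more than at 90.4%. Foxo3 (7.07%), Foxo4 (6.77%), Cat (5.43%), Sod2 (5.32%), Sesn1 (5.03%) and Foxo1 (4.81%) lay between percentiles 57.1 and 69.8, and the median gene had 3.85%. Sesn3 (2.95%) and Atm (1.27%) lay below that median, at percentiles 42.3 and 26.7, although their promoters were among the 3 most open of the members. A short gene has a larger part of its window taken up by the promoter, and Txnip is the shortest of the 10 genes, so these shares describe the windows and not the strength of a gene.

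Foxo3 is the FoxO factor best known for keeping HSCs quiescent. The gene lies at chr10:42181841-42276755 on the minus strand, and its promoter site was the widest of the 55, with 5500 bp over which 77.4% of cells had at least 1 cut. The bin at the start itself was cut in 34.9% of cells. The highest bin was another one, centred 1.05 kb upstream, with 1604 cells (51.6%, 49.8 to 53.4), and the bin 1.55 kb upstream had 30.2%. The trough between both summits, 0.554 kb upstream, held 16.2%. No other protein-coding start lies there. The 250 bases of the upstream summit, chr10:42277659-42277908, cut in 47.6% of cells, are shown because they hold the highest bin of the locus, away from the annotated start. They are printed from the plus strand of GRCm38, like every site below, and held none of the 8 motifs searched, hence no capitals.
Foxo3 upstream summit: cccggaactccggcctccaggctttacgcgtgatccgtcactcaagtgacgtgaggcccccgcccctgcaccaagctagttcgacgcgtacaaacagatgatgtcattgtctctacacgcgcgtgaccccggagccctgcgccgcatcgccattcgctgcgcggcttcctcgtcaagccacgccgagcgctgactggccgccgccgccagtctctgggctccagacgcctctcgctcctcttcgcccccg

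Past the promoter, bins of Foxo3 from 0.446 to 2.95 kb into the gene stayed between 5.15% and 13.1%. All 4 of its intronic sites lay in the intron after exon 2, at 6.95, 24.9, 31.9 and 55.9 kb, with 3.89%, 2.22%, 3.09% and 3.54% of cells. A start annotated inside the gene, 18.3 kb from the main one, was cut in 42 cells (1.35%). Upstream, distal sites at 15.1 kb (4.05%) and 18.6 kb (4.18%) were of similar height. The former is printed because it held the FoxO string, the letters GTAAACA on either strand, in addition to a RUNX string (TGTGGT), which stand in capitals in the sequence of chr10:42291501-42291750.
Foxo3 distal site: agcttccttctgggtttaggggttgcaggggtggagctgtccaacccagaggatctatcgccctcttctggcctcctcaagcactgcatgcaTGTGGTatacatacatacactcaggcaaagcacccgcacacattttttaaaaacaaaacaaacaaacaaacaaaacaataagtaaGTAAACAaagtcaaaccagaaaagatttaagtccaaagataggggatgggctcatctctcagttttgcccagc

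Foxo1, known in blood for its part in lymphocyte development, lies at chr3:52268336-52353221 on the plus strand. Its bin at the start was cut in 1094 cells (35.2%, 33.5 to 36.9), and openness ran on into the first exon and intron with 14.6%, 11.6%, 6.34% and 5.18% in the next 4 bins. The strongest site elsewhere was 78.9 kb downstream of the start, in the untranslated part of exon 3, with 293 cells (9.43%, 8.42 to 10.5). An intronic site 75.4 kb downstream had 4.31%. Upstream of Foxo1, 3 distal sites were open at 25.6 kb (6.63%), 10.6 kb (3.35%) and 5.59 kb (5.37%).

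Foxo4 (chrX:101254528-101260873, plus strand) was the member with the least open promoter. In percentage points, not as a ratio, it also had the smallest gap between its highest promoter bin and its strongest other site. The highest promoter bin had 210 cells (6.76%, 5.90 to 7.70), and a site in the untranslated part of its last exon, 6.22 kb downstream, had 133 (4.28%, 3.60 to 5.05). The cuts at the start peaked 400 to 450 bp upstream, as the plot of cuts around the start sites shows. The start of Med12, a subunit of the Mediator complex, 19.7 kb downstream, was cut in 593 cells (19.1%), more than Foxo4 itself. The start of Il2rg, the shared receptor chain of several interleukins, was cut in 124 cells (3.99%). Gm20489, whose start is assigned to the same open site, had 90 cells (2.90%). The promoter summit of Foxo4 (chrX:101254010-101254259, cut in 145 cells, 4.67%) is printed because it held a FoxO string, in capitals.
Foxo4 promoter summit: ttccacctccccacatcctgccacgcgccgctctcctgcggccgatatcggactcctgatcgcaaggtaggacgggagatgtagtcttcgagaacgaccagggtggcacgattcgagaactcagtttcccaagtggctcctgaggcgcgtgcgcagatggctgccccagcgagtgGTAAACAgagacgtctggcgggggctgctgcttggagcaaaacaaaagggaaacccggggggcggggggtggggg

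**Figure D3:**
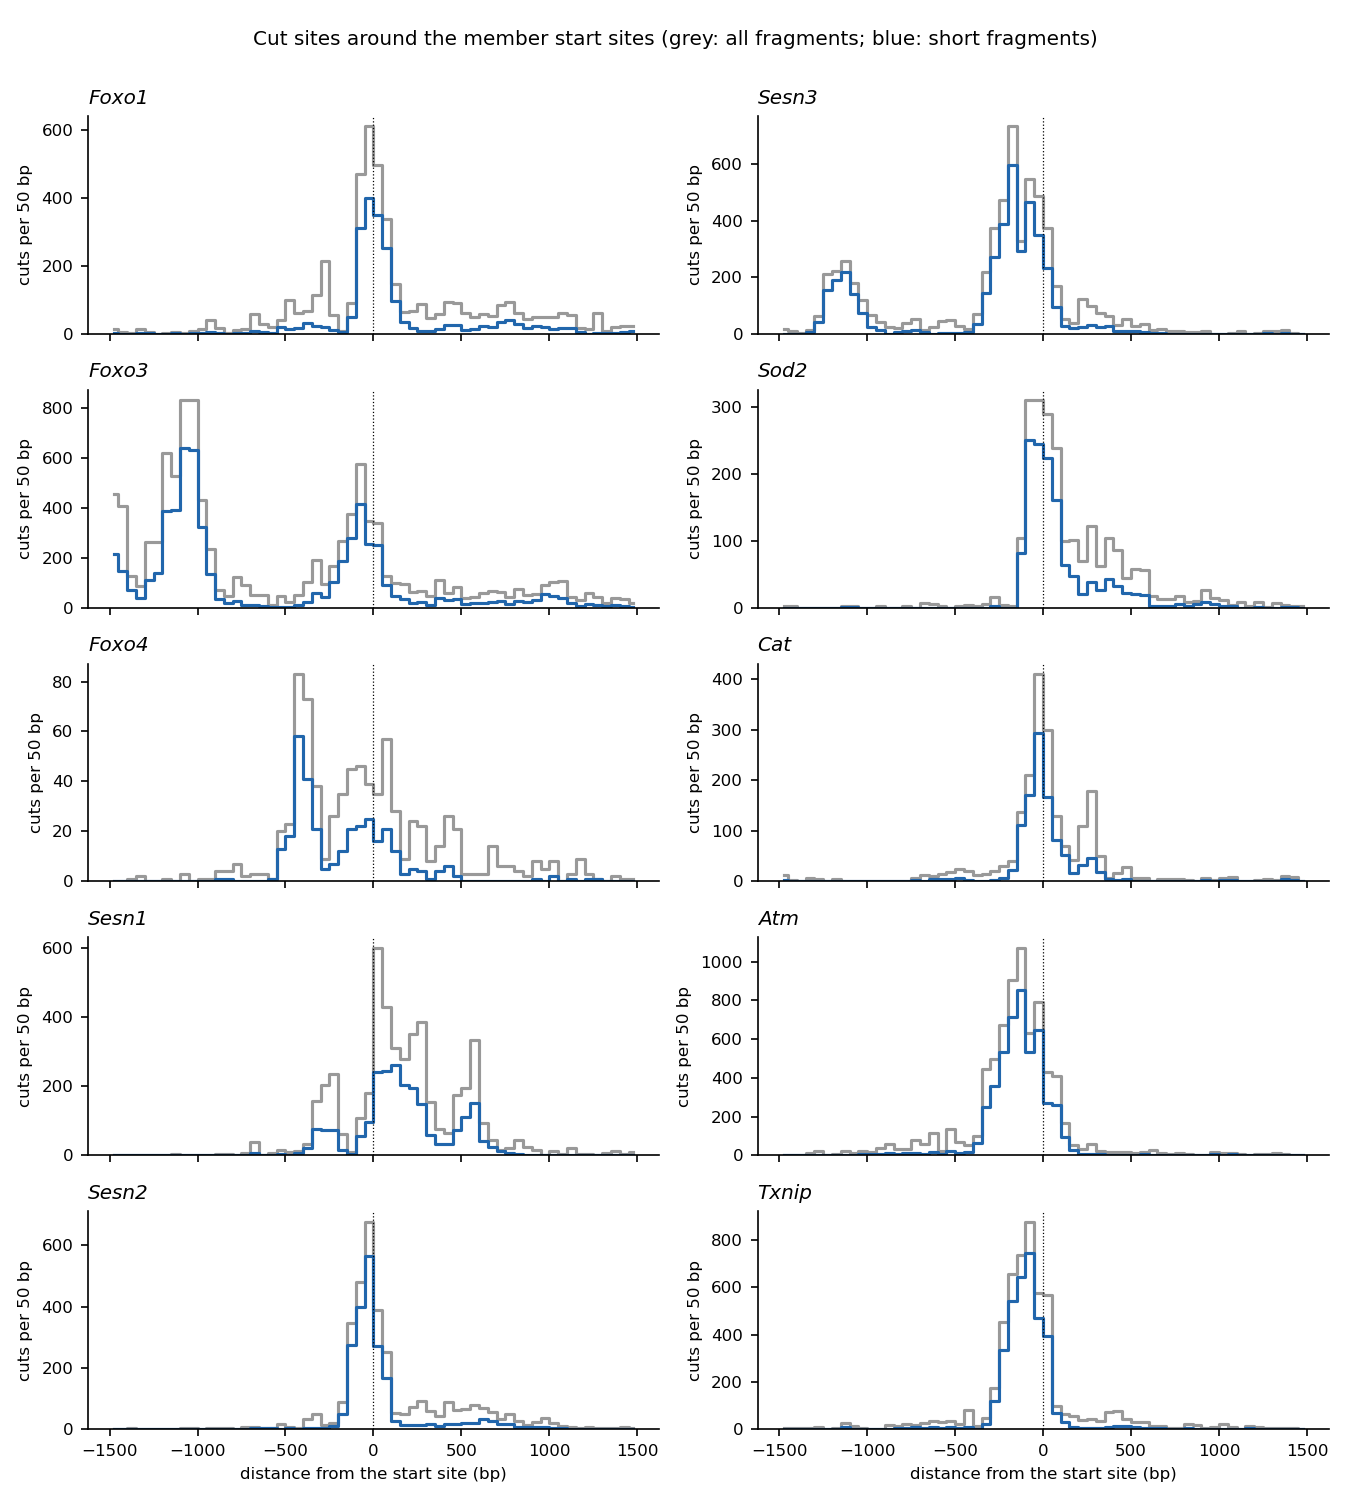
Cut sites per 50 bp (y axis) against the distance from the start site in bp (x axis, direction of transcription) for the 10 members, for all fragments (grey) and for short fragments, under the length of nucleosomal DNA (blue). The y axes differ between panels. Foxo3 has its highest steps 1000 to 1100 bp upstream, and the cuts of Atm, Txnip and Sesn3 lie mostly upstream of the start.

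The sestrins restrain mTORC1 and limit oxidative damage, and Sesn1 and Sesn3 are known FoxO targets. Sesn3 (chr9:14275067-14333101, plus strand) has annotated starts up to 1234 bp apart. The start at position 14276301 was cut in 47.2% of cells, and the upstream starts at 14275067 and 14275083 in 18.8% and 18.95%. The bins that hold these starts had 44.6% and 18.2%, with 12.8% in the bin between them, so both ends of the site were open, the downstream one more than the upstream one. The only other open site of the locus lay 65.9 kb downstream of the start, past the end of the gene, with 230 cells (7.40%, 6.5 to 8.38). The 250 bases before the downstream start, chr9:14276051-14276300 on the plus strand, cut in 39.4% of cells, are printed because they held more of the motifs searched than any other member promoter. The capitals mark 4 CCAAT boxes (CCAAT on either strand), 1 RUNX string and 1 GATA string (AGATAA).
Sesn3 promoter: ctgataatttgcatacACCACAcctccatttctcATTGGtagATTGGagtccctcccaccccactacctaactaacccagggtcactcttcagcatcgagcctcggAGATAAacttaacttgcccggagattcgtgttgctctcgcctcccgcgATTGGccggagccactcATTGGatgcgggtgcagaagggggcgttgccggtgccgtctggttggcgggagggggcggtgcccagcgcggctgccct

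Sesn1 lies at chr10:41809935-41908424 on the plus strand and shares its start region with Cep57l1, which is transcribed the other way from a start 64 bp upstream. Cuts cannot be assigned to either gene, and the Cep57l1 window had 42.6% of cells against 43.6% for Sesn1. Of the cuts within 500 bp of its start, Sesn1 had 26.4% upstream, the smallest share of the members, against 81.0% at Atm, 76.9% at Txnip and 75.3% at Sesn3. Another annotated start lies 77.5 kb inside the gene, and its window was cut in 724 cells (23.3%, 21.8 to 24.8). Intron sites of Sesn1 at 21.3, 60.3 and 83.8 kb had 4.79%, 3.54% and 2.22%. Distal sites at 125 and 127 kb, both inside the neighboring gene Armc2, had 3.47% and 9.33%.

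Sesn2 (chr4:132492032-132510501, minus strand), a leucine sensor of the mTORC1 pathway that is induced by stress, was the only member with a site outside promoters that was stronger than its own promoter. The distal site 5.25 kb upstream had 1142 cells at its highest bin (36.7%, 35.0 to 38.5), and the highest promoter bin 892 (28.7%, 27.1 to 30.3), with intervals that did not overlap. The start of Sesn2 falls on the border of a bin, which splits the promoter's cuts, and the promoter window of 1000 bp around it had 35.6% (33.9 to 37.3). With windows of equal width moved in steps of 50 bp, an alternative chosen after seeing the data, the highest 500 bp had 37.5% (35.8 to 39.3) at the distal site and 34.1% (32.4 to 35.8) at the promoter, and the highest 1000 bp had 43.9% (42.1 to 45.7) and 37.4% (35.7 to 39.1). The distal site was thus the higher in both, by less than on the fixed bins at 500 bp. The distal bin stood at percentile 99.5 among open bins away from protein-coding starts. On the side towards the gene, the bins 4.25 and 4.75 kb upstream had 16.0% and 13.1%. On the far side, the bin 5.75 kb upstream had 67 cells (2.16%). The whole site of 2000 bp was cut in 44.5% of cells. The fragments at its highest bin were short, 66.8% of them shorter than the DNA wound around a nucleosome core, as at the Sesn2 promoter bin (71.1%).

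The same distal site overlaps a gene that is not protein-coding. RefSeq places the transfer RNA gene n-TAagc8, a nuclear alanine tRNA, at chr4:132516008-132516079 on the plus strand, inside the site, next to its highest bin and 258 bp from the centre of that bin. Of the 36 sites outside promoters it was the only one with a RefSeq start of any kind within 1000 bp. Genome-wide, 239 of 403 nuclear tRNA genes (59.3%) had a cut in at least 2% of cells within 500 bp of their start, with a median of 6.02% of cells, and n-TAagc8 stood at percentile 80.3 among them. That rank comes from the highest bin of the site, which its window takes in and which had 1142 cells. The bin that holds the tRNA gene itself had 67 cells (2.16%). Most of the cuts around it, 97.2% of 4319 within 1500 bp, lay upstream of its start, and the highest 50-bp step was 350 to 400 bp upstream. Whether the openness belongs to Sesn2 or to the tRNA gene was not tested. The summit, chr4:132515509-132515758, cut in 1077 cells (34.7%), is printed because it was the strongest site of the 36. It ends before the tRNA gene begins. The capitals mark 3 CCAAT boxes and an antioxidant response element string, TGACNNNGC, which is the core to which Nfe2l2 binds.
Sesn2 distal site: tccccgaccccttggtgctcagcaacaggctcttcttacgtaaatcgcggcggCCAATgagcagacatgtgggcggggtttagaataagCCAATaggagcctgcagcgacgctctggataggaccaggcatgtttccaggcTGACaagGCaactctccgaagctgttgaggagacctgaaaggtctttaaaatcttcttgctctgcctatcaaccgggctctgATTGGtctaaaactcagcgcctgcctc

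Farther out, Sesn2 had a broad distal site around 17.7 kb upstream with 11.3% at its highest bin (10.2 to 12.4) and 22.3% of cells over its 3500 bp. A weak distal site lay 19.8 kb downstream of the start, past the end of the gene (3.15%). The starts of 3 other genes in the window were open as well, Dnajc8 (19.9%), Med18 (18.98%) and Atpif1 (14.6%).

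Sod2 encodes the manganese superoxide dismutase of mitochondria, which turns superoxide into hydrogen peroxide, and Cat encodes catalase, which breaks hydrogen peroxide down. Sod2 (chr17:13006846-13040063, plus strand) has starts annotated 971 bp apart, and only the downstream one, at 13007817, was open, with 25.1% of cells against 22 cells (0.708%, 0.444 to 1.07) at the upstream one, at 13006846. Its single intronic site, 2.43 kb past the start in the intron after exon 2, had 121 cells (3.89%, 3.24 to 4.63). The bin on its promoter side had 61 cells, just under the threshold, and with a threshold of 1% of cells, with any overlap of a fragment or with a higher minimum of fragments in peaks the intronic site was no longer separate from the promoter site. A distal site 11.1 kb upstream had 2.86%. The intron after exon 2 is known in other cells to hold an enhancer of Sod2 that responds to inflammatory cytokines. The window of Wtap, a subunit of the enzyme that methylates adenosine in RNA, lies 15.6 kb upstream and was cut in 1177 cells (37.9%), more than Sod2. The intronic site, chr17:13010004-13010253, cut in 118 cells (3.797%), held strings for the antioxidant response element, RUNX and GATA and 2 CCAAT boxes, in capitals.
Sod2 intronic site: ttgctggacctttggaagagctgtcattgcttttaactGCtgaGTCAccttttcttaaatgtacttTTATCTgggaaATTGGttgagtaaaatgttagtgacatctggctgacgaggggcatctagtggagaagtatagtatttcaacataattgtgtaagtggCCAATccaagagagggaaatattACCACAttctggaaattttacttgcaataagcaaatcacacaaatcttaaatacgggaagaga

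Cat (chr2:103453849-103485160, minus strand) had a narrow promoter with 91.2% of the cuts within 1500 bp of the start lying within 500 bp, the largest such share of the members. Its strongest other site, 28.4 kb inside the gene in coding exon 11 of 13, had 157 cells (5.05%, 4.31 to 5.88). The 5 distal sites of Cat were all weak, between 2.06% and 3.93%, and 3 of them lay in the body of Elf5, an ETS factor gene, whose own start was cut in 159 cells (5.12%). The 250 bases before the start of Cat, chr2:103485161-103485410, printed from the minus strand in the direction of transcription, held 4 CCAAT boxes, in capitals, which made it with Sesn3 the member with the most. They were cut in 491 cells (15.8%).
Cat promoter: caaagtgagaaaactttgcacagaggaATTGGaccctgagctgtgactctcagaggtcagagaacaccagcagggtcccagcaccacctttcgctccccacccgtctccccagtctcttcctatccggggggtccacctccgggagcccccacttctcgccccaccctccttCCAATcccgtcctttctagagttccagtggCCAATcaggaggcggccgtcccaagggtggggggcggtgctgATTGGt

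Atm encodes a kinase that is activated by DNA double-strand breaks and by oxidants. Its gene body is among the longest of the members (chr9:53439149-53536740, minus strand), and its locus held a single open site. That site had 1846 cells at its highest bin (59.4%, 57.6 to 61.1) and 64.5% over its 2000 bp. The start of Npat, which is needed for transcription of histone genes, lies 307 bp upstream on the other strand, and its window was cut in 1983 cells (63.8%, 62.1 to 65.5). As with Sesn1 and Cep57l1, cuts between the starts cannot be assigned to either gene. Starts annotated inside Atm, 2.77 and 83.1 kb from the main one, were cut in 5 cells each (0.161%, 0.0523 to 0.375). Bins of the Atm locus that were not open had a mean of 0.144% of cells. The 250 bases before the Atm start, chr9:53536741-53536990 on the minus strand, cut in 1763 cells (56.7%), are printed because they lie between both starts. The capitals mark their only match, a CCAAT box.
Atm promoter: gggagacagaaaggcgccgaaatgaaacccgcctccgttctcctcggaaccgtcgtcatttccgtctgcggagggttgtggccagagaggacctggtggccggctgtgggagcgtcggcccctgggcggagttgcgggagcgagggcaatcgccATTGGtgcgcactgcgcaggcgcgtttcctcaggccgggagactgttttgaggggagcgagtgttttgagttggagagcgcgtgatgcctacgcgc

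Txnip encodes the thioredoxin-interacting protein, which blocks thioredoxin and glucose uptake and is known to support HSC quiescence. The gene is short (chr3:96557957-96561883, plus strand) and the member with the most distal sites, 6. Its promoter bin had 1567 cells (50.4%, 48.6 to 52.2), and 72.6% of the fragments there were short in the same sense. The strongest distal site lay 22.3 kb downstream of the start, inside the genes Gm16253 and Polr3gl, a subunit of RNA polymerase III, with 629 cells (20.2%, 18.8 to 21.7). The start of Gm16253 at 19.03 kb was cut in 659 cells (21.2%). A site 6.79 kb downstream had 405 cells (13.0%, 11.9 to 14.3), and the bins of Txnip between 4.29 and 5.79 kb from the start joined it at 2.70% to 3.25%. Upstream of Txnip, sites at 10.2 kb (7.27%), 6.71 kb (4.25%) and 2.71 kb (2.48%) were open. A long noncoding gene, Gm15441, is annotated across the Txnip promoter on the other strand, so cuts there are shared with it. Starts of noncoding genes also lay in the promoter sites of Foxo1 (Gm20402) and Sesn2 (Gm12981). The 250 bases before the start of Txnip, chr3:96557707-96557956, cut in 1476 cells (47.5%), are printed because they hold the FoxO string close to the start, where no other member had it within 250 bases before to 50 past the start. The capitals mark that string and 2 CCAAT boxes.
Txnip promoter: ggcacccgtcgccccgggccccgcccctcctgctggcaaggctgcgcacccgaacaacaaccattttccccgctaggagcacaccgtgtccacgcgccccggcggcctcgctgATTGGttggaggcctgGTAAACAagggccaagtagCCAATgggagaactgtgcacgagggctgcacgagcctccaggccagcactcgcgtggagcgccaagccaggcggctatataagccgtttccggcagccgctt

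**Figure D4:**
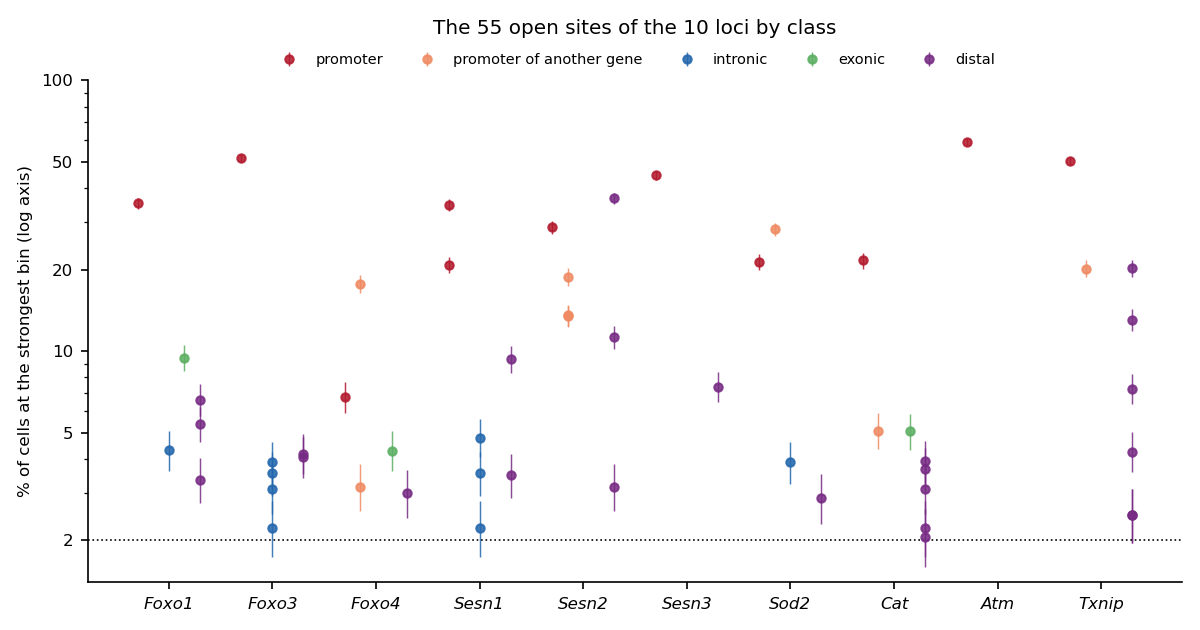
Share of cells at the highest bin of each of the 55 open sites (y axis, percent, log scale), by member and coloured by class, with exact 95% binomial intervals as bars and the 2% threshold dotted. Outside promoters, the Sesn2 distal site at 36.7% and the Txnip site at 20.2% stand highest, and the Sesn2 site is the one that exceeds its member's promoter.

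Motif strings were counted in the 300 bases from 250 before to 50 past the start of each member, on both strands, beside all 21670 promoters. The FoxO string was in 1 member promoter, that of Txnip, and in 2.90% of all promoters. The antioxidant response element string was in 1, that of Sesn2, against 13.0% of all, the RUNX string in 1 against 14.6%, and the GATA string in 1 against 9.10%. CCAAT boxes were in 7 of the 10, against 37.6%. The E box (CACGTG), the ETS string (CCGGAAG) and the p53 string (CATG, 6 bases of any kind, CATG) were in none of the 10, and in 8.03%, 12.0% and 0.646% of all promoters. Outside these 300 bases, the highest promoter bins of Foxo1 and Foxo4 also held the FoxO string. In the highest bins of the 36 sites outside promoters, the FoxO string was in 2 (5.56%, against 6.41% of 58506 open bins away from starts), both at Foxo3. RUNX strings were in 15 (41.7%, against 37.0%), antioxidant response element strings in 11 (30.6%, against 20.2%), GATA strings in 7 (19.4%, against 21.4%) and CCAAT boxes in 17 (47.2%, against 44.1%). With so few members, these shares are a description. The GC content of the 10 promoter windows ran from 52.0% at Sesn1 to 75% at Foxo3, and all but Sesn1 lay above the median of all promoters, 57.7%.

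Fragment length is a readout that the choice of genes did not use. Fragments shorter than the DNA of a nucleosome core made up 45.6% of the library. At the member promoters their share was 70.4% for Txnip, 68.5% for Atm, 66.5% for Sesn3, 61.8% for Sesn2 and 60.3% for Sod2. It was 54.5% for Foxo3 and for Cat, 48.96% for Foxo1, 47.1% for Sesn1 and 44.0% for Foxo4. The median was 51.9% over the protein-coding promoters that passed a minimum number of fragments, so Foxo1, Sesn1 and Foxo4 lay below it. At the 36 sites outside promoters the median was 52.2%, against 43.2% over the open bins away from starts, where every open bin counts and not only the highest of a site. The shares at single sites ran from 25% at the Sesn1 site 125 kb downstream to 71.6% at the Sesn3 distal site.

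All 10 promoter shares were higher in the deepest cells than in the shallowest. The cells were put in 4 groups of equal size by their number of fragments, with medians of 7455, 10489, 12373 and 15520. From the shallowest to the deepest group, the share at Atm went from 50.7% to 75.7%, 1.49 times, the smallest ratio, and at Foxo4 from 5.15% to 15.4%, 3.00 times, the largest. The other ratios lay between 1.61 for Sesn3 and 2.20 for Sod2. In every group Atm was first and Foxo4 last. A cell had a cut at 3.77 of the 10 promoters on average, 2.76 in the shallowest group and 4.78 in the deepest. In all, 41 cells had none and 1 cell had all 10.

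**Figure D5:**
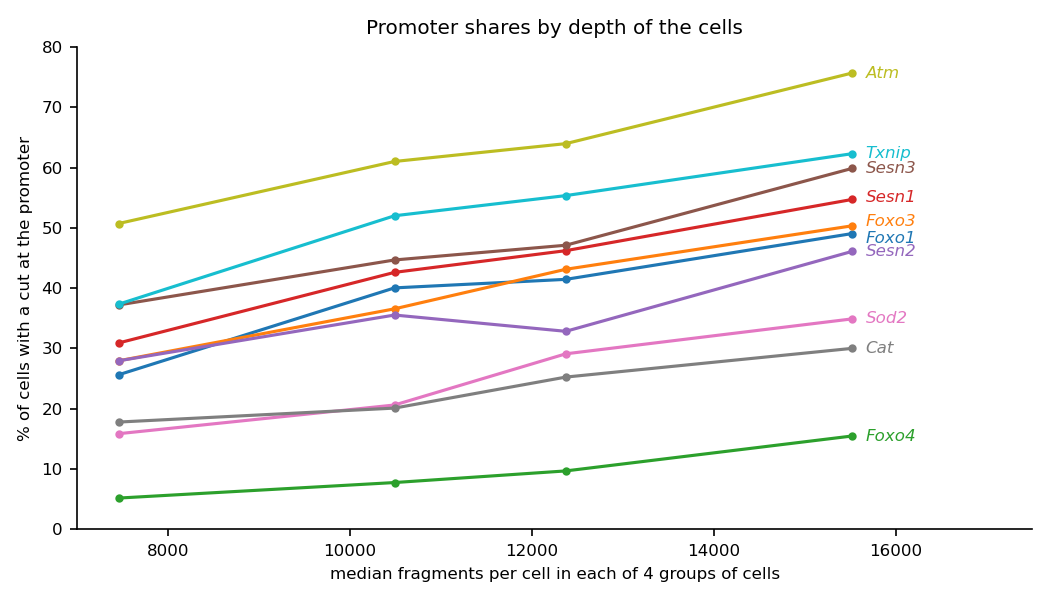
Share of cells with a cut at each member's promoter (y axis, percent) in 4 groups of 777 cells ordered by their number of fragments (x axis, median fragments per cell). All 10 lines end higher than they begin, with Atm on top (50.7% to 75.7%) and Foxo4 at the bottom (5.15% to 15.4%).

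Cells with a cut at a promoter were then set beside cells with a cut at another site of the same member. For each of the 36 sites the number of cells with both was compared with the number expected from depth alone, summed over 10 depth groups of cells. At the Sesn2 distal site 544 cells had both, against 513 from depth, a ratio of 1.06 (Poisson interval of the joint count alone, 0.974 to 1.15). At the Txnip site 22.3 kb downstream 378 cells had both, against 368 (1.03, 0.927 to 1.14), and at the site 6.79 kb downstream 377 against 355 (1.06, 0.957 to 1.17). The ratios of the 36 sites ran from 0.782 at the Foxo3 site 18.6 kb upstream to 1.502 at the Foxo4 exon 3 site, where 22 cells had both against 14.6. These intervals take no account of the fixed numbers of cells with each site and are wider than the spread under independence, and whether any ratio departs from 1 was not tested.

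A list of 40 other FoxO pathway and redox genes was read in the same way. All 40 were found, 36 lay above the median of all promoters and 24 above percentile 75, with a median of 31.8% of cells, against 39.3% for the 10 members. The highest were Gclm (70.9%), which makes part of the enzyme for glutathione synthesis, Akt2 (67.7%), a kinase that inactivates FoxO factors, and Txn1 (65.6%), the thioredoxin that Txnip binds. The lowest were Cybb (0.0644%), the NADPH oxidase subunit of phagocytes, Sod3 (0.129%), the extracellular superoxide dismutase, and Trim63 (0.450%), a FoxO target of muscle.

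The threshold of 2% left bins on both sides. Just inside were bins of Foxo1 10.1 kb upstream and of Txnip 6.21 kb upstream, each with 63 cells, and the Cat distal site 10.6 kb upstream with 64. Just outside, with 62 cells each, were bins of Cat 38.9 kb downstream, of Foxo3 23.6 kb upstream and of Txnip 10.7 kb upstream.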

How the data were processed

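The members, gene lists and motifs were chosen with earlier results of these data known. HSCs were profiled by DOGMA-seq, and the authors ran Cell Ranger ARC 2.0.2 on the reads of both assays, ATAC and RNA, against mm10. The deposited files give, as counts that were not normalized, the read pairs behind each unique ATAC fragment and the fragments and reads of each barcode. The deposited counts of surface tags and the counts of RNA per gene were not used here. Coordinates are GRCm38, with GENCODE vM21 genes, and RefSeq on the same assembly for tRNA genes and for sequence. Neither fragments nor genes ended past a chromosome.

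Called cells with more than 3000 fragments in peaks were kept, doublets included, without the further quality filters of the study. They held 37137164 fragments with 4.50 read pairs each on average. A share of cells with its interval describes 1 library. All 10 members, the genes with open starts in their windows, the cell type markers, and the 3 highest and 3 lowest of the other FoxO and redox genes were named by rule. On simulated data for 21670 promoters the counted shares had a slope of 1.00 on the true ones, and 96.2% of intervals held the true share. The simulated cuts were independent and lay around well separated starts, so this checks the counting alone. The software was Python 3.11.15 (pandas 2.3.3, numpy 2.4.6, scipy 1.17.1, matplotlib 3.10.9). The alternatives changed the threshold, bins, counting of fragments, cells, depth, start and window.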

Additional observations from a re-analysis of the deposited data

How the results depend on the processing

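Alternatives numbered 13. The 55 open sites became 29 with a threshold of 5% of cells and 23 when each cell was thinned to 3000 fragments, and lay between 49 and 71 under the others. Under the 10 of them that bear on it, Sesn2 stayed the one member with a stronger site outside promoters. Members above the promoter median numbered 10 except for 9 with the wider window (Foxo4 at percentile 49.3, while Foxo3 rose to 93.7) and 9 with the 5'-most start (Sod2 at percentile 31.4 and 0.708% of cells, Sesn3 at 69.4 and 18.8%). The median ratio of promoter shares between the deepest and shallowest of 4 groups of cells, 1.73, rose to 3.85 over all called cells and was 1.01 after thinning, which removes the difference in depth by construction. The median share of short fragments at sites outside promoters ran from 50.0% to 67.0%. Of the other values, for single members, 201 stayed within their interval, or within 5 percentile points and on the same side of the median, and 89 did not. Depth limits what can be seen at weak sites, where 2% of cells is 63 cells. The 3 libraries read different molecules of the same cells in 1 preparation. The RNA and tag counts were not used, so no analysis paired by cell was run.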
